A study of Homo sapiens with 6 samples.

Results

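Aminoacyl-tRNA synthetases are the enzymes that load each amino acid onto its transfer RNA, and 35 of their genes were followed here through treatment of HCT116 cells with 5aza. The genes were chosen by name, as cytosolic and mitochondrial synthetases, and matched by Ensembl identifier; all 35 were found among the 16715 genes of the table and all 35 passed the filter on low values. Of these, 19 encode cytosolic enzymes or enzyme subunits and 16 encode mitochondrial enzymes. HCT116 is a human colorectal carcinoma line. The 5aza group (3 libraries) was treated with 5 µM 5aza for 48 hours and then kept in fresh medium for 48 hours. The control group (3 libraries) carries the treatment label control, and a vehicle is not named in the labels used here. Both groups were HCT116 cells at passages 7 to 10. The column code of the treated libraries, DAC, is a common abbreviation of 5-aza-2'-deoxycytidine, whereas the titles have 5aza, the name used here. The labels do not say that libraries came from separate cultures, so p-values measure the spread between these libraries, which may be technical.

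A synthetase recognises its amino acid and its tRNA, activates the amino acid with ATP and passes it to the tRNA, so that the ribosome reads the code correctly. The enzymes fall into class I and class II by the fold of their catalytic domain. Human cells hold separate sets for the cytosol and for the mitochondria, and nuclear genes encode both sets. Several cytosolic enzymes sit together in the multisynthetase complex on the scaffold proteins AIMP1, AIMP2 and EEF1E1. Many cytosolic synthetase genes are known targets of ATF4, the transcription factor that is made when amino acids run short or the endoplasmic reticulum is stressed. Azanucleosides such as 5aza bind DNA methyltransferases covalently, and DNA copied without these enzymes loses its methyl marks.

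Levels are in FPKM, which corrects fragment numbers for transcript length and for the mapped fragments of each library, as the authors deposited them. The words rose and fell are kept for genes that limma called at an adjusted p under 0.05 on log2(FPKM + 0.1), over all 12360 genes tested. A fold change is the log2 value of 5aza minus control, and levels given without single libraries are means over the 3 libraries of a group. Summed FPKM lay between 577735 and 592051 in the 5aza libraries, and between 601916 and 628399 in the control libraries. Of 10 colorectal epithelial markers in the table, 6 were at 1 FPKM or more in all 6 libraries, among them EPCAM and KRT8. The epithelial markers CDX1, VIL1 and LGALS4 were under 1 FPKM in all 6. The summed level of the 10 epithelial markers was 2849 to 2921 FPKM in the 5aza libraries, against 2347 to 2501 FPKM in the control libraries. KRT8, KRT18 and KRT19, all higher in 5aza, made up most of this sum. CDH1 and KRT20 were also higher in 5aza, and CDX2 overlapped. EPCAM was lower, at 151 to 157 FPKM in 5aza and 166 to 167 FPKM in control libraries. The 6 leukocyte markers summed to 5.66 to 6.51 FPKM in 5aza and 3.31 to 4.50 FPKM in control libraries, with 5 of the 6 under 1 FPKM throughout. The 6 fibroblast markers summed to 31.5 to 33.4 FPKM in 5aza and 31.2 to 31.6 FPKM in control libraries, and all 4 endothelial markers were under 1 FPKM. In RNA from a whole culture, fewer cells of a kind and less RNA per cell cannot be told apart.

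The letters that ATF4 and its C/EBP partners bind are known, so they were looked for in the promoters of the synthetase genes. The RefSeq promoter table (GRCh38.p14) holds 300 bases around a gene's start, 250 before it and 50 after it, and had a window for 30 of the 35 genes. LARS1, VARS1, YARS1, AARS2 and VARS2 had none. The core of the C/EBP-ATF response element, TGATGNAA, was searched on both strands. It occurred in 7 of 16 cytosolic genes with a window, 1 of 14 mitochondrial genes with a window and 3.62% of all 35116 windows in the table. With C at the free base (TGATGCAA), it occurred in 6 of 16 cytosolic genes, 0 of 14 mitochondrial genes and 0.866% of all windows. The E-box CACGTG, which MYC and related factors bind, occurred in IARS1 and in the mitochondrial CARS2, EARS2 and MARS2, and in 7.26% of all windows. A match of letters is a description and does not show that a factor binds there. The stretches below are shown because they are what 7 cytosolic genes and YARS2 share; each has 30 bases on the gene's own strand, 5′ to 3′, with the motif in capitals. Where the motif lies on the opposite strand it reads TTNCATCA.
AARS1: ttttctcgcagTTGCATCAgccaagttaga
IARS1: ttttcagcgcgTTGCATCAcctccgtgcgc
MARS1: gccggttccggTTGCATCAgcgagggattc
CARS1: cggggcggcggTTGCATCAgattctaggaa
TARS1: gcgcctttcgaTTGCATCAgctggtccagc
GARS1: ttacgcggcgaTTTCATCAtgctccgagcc
NARS1: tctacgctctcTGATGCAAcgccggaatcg
YARS2: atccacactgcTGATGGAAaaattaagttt

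In IARS1 (chr9:92293692-92293721, minus strand) the motif begins 13 bases before the start of the gene, and in AARS1 (chr16:70289675-70289704, minus strand) it begins 187 bases before it. MARS1 (chr12:57488053-57488082, plus strand) and CARS1 (chr11:3057407-3057436, minus strand) have it 4 and 2 bases before the start, and GARS1 (chr7:30594834-30594863, plus strand) 33 bases before it. In TARS1 (chr5:33440956-33440985, plus strand) and NARS1 (chr18:57621804-57621833, minus strand) it begins at bases 3 and 15 of the transcript. YARS2 (chr12:32756076-32756105, minus strand) has it 197 bases before the start. Both GARS1 and YARS2 have a letter other than C at the free base. The promoters of the family were rich in CpG, the site of DNA methylation. Of the 30 genes with a window, 28 (93.3%) had over 50% G and C and a CpG content over 0.6 of that given by their C and G content, against 46.8% of all windows. CARS2 and FARSB were the exceptions. The windows compared include those of genes not tested here, and the share among tested genes was not computed.

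Cytosolic synthetase genes mostly lay at higher levels than mitochondrial ones. Their mean over all 6 libraries ranged from 31.9 FPKM (CARS1) to 196 FPKM (QARS1), with a median over the 19 genes of 89.1 FPKM. The mitochondrial genes ranged from 2.36 FPKM (WARS2) to 76.0 FPKM (IARS2), with a median over the 16 genes of 22.8 FPKM. Summed over its genes, the cytosolic set had 1556, 1562 and 1732 FPKM in 5aza replicates 1 to 3, and 1790, 1678 and 1648 FPKM in control replicates 1 to 3. The groups overlapped in this sum. RARS1 alone varied between 83.0 and 276 FPKM, and without it the cytosolic sum was 1463, 1473 and 1456 FPKM in the 5aza libraries, against 1579, 1592 and 1566 FPKM in the control libraries. The mitochondrial set had 403, 405 and 398 FPKM in the 5aza libraries, against 423, 436 and 421 FPKM in the control libraries. Without RARS1, both sums were lower in every 5aza library than in any control library, as was the summed FPKM of all genes. As a share of the summed FPKM of all genes, the mitochondrial set overlapped between the groups, at 0.0681 to 0.0692% in 5aza and 0.0677 to 0.0700% in control libraries. The cytosolic set without RARS1 was at 0.247 to 0.252% in 5aza and 0.253 to 0.260% in control libraries. The ratio of the 2 sums, again without RARS1, was 3.63, 3.64 and 3.66 in the 5aza libraries and 3.74, 3.65 and 3.72 in the control libraries, so it overlapped between the groups.

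**Figure D1:**
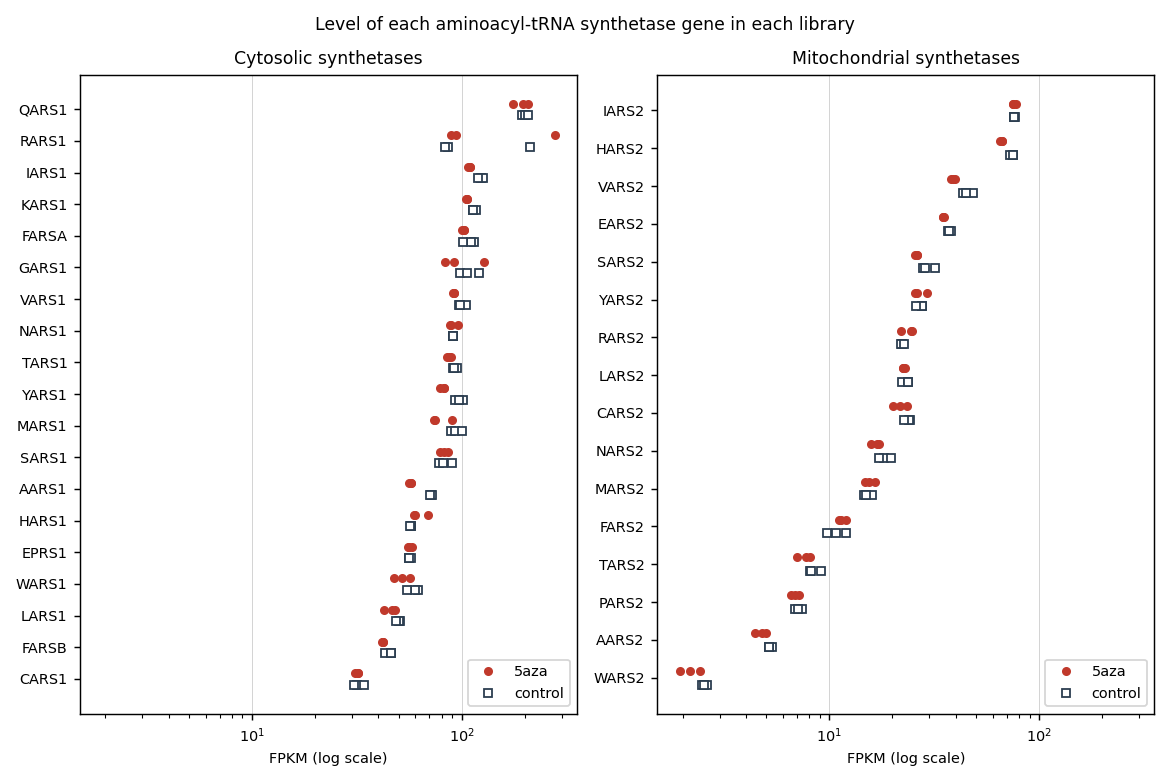
Level of each synthetase gene in FPKM (log axis), cytosolic genes left and mitochondrial genes right, with 1 red point per 5aza library above 1 open square per control library. RARS1 has 1 library of each group, at 276 FPKM (5aza) and 210.2 FPKM (control), far to the right of its other libraries.

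After 5aza, 5 of 19 cytosolic synthetase genes fell, whereas 14 missed the threshold and 0 rose. Of the 16 mitochondrial genes, 2 fell, 14 missed the threshold and 0 rose. The falls were of AARS1, YARS1, IARS1, VARS1 and KARS1 in the cytosol and of VARS2 and HARS2 in the mitochondria. All were small: AARS1, the strongest, fell by 20.4% in its mean. Over all genes tested, 13.1% fell and 10.6% rose (23.7% in all). With libraries scaled to the same summed FPKM, 6.30% fell and 18.2% rose, so the balance of the calls turned with the scaling. Falls were more frequent among abundant genes: 28.5% of the 2670 genes tested with a mean between those of CARS1 and QARS1 fell and 7.68% rose, and 26.3% of the cytosolic synthetases fell. Among the 8956 genes tested in the range of the mitochondrial set, 12.4% fell and 10.2% rose, beside 12.5% of the mitochondrial synthetases that fell. In both sets the share that fell was therefore near that of other genes of similar level. The fold change was negative in 16 of 19 cytosolic and 13 of 16 mitochondrial genes, beside 70.7% and 52.2% of genes of similar level, and this difference was not tested. It was negative in 12 cytosolic and 9 mitochondrial genes with the same summed FPKM, and in 12 and 11 with quantile normalization or with the expression trend removed. The median log2 fold change was -0.10 in the cytosolic and -0.10 in the mitochondrial set, against -0.01 over all genes tested and -0.07 over genes in the cytosolic range. At an unadjusted p under 0.05 with limma, 10 cytosolic and 5 mitochondrial genes were lower, and 1 cytosolic and 0 mitochondrial genes were higher. By the same measure, 1086 of the 2670 genes in the cytosolic range were lower and 307 were higher. In the mitochondrial range, 1791 of 8956 genes were lower and 1513 were higher. Of all 12360 genes tested, 20.3% were lower, and 2096 genes were higher.

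All 3 5aza libraries lay below all 3 control libraries in 8 cytosolic and 7 mitochondrial genes, and above them in HARS1 alone. Over all genes tested, 22.6% lay below and 19.6% above. In the cytosolic range 42.0% lay below and 13.0% above, and in the mitochondrial range 22.4% lay below. By catalytic class, 3 of 10 class I and 2 of 9 class II cytosolic genes fell, with median log2 fold changes of -0.12 and -0.10. Of the 7 genes measured of the multisynthetase complex, IARS1 and KARS1 fell and 5 did not pass (median log2 fold change -0.12), and 3 of the 12 cytosolic genes outside it fell (median -0.10). No test was made between these subsets.

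**Figure D2:**
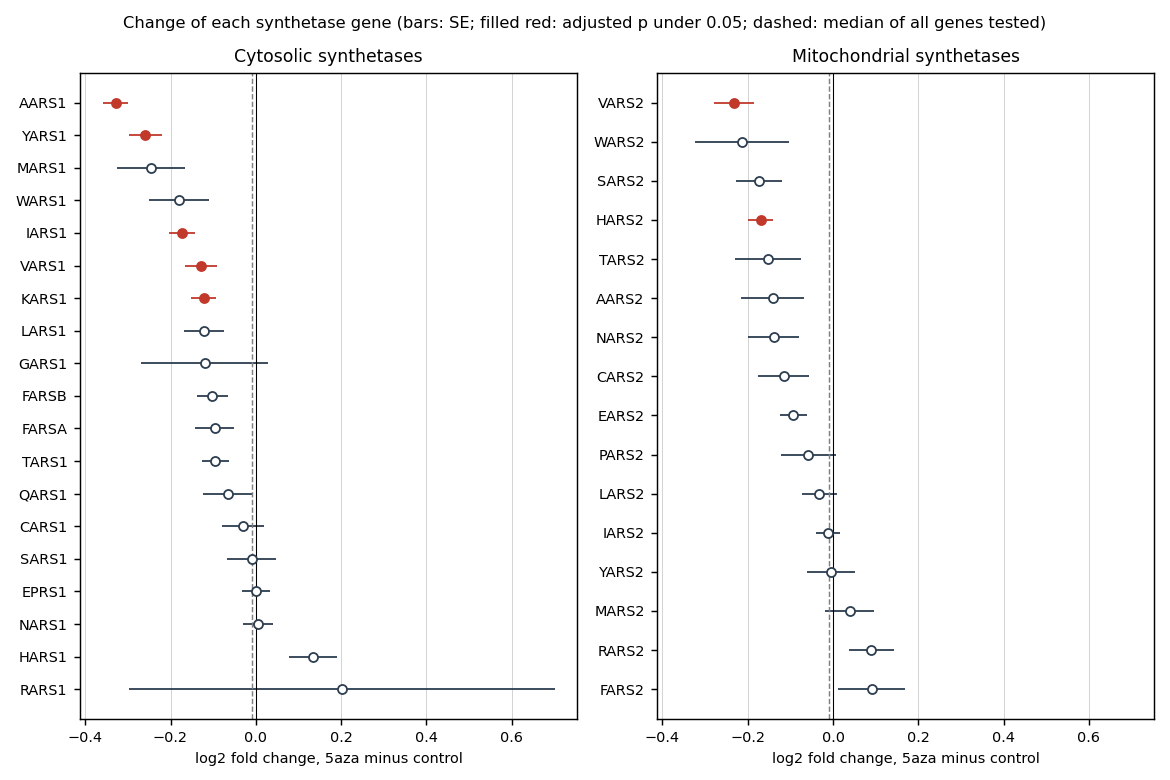
Log2 fold change of each synthetase gene, 5aza minus control, with its SE as a bar; filled red points passed the test and open points did not, and the dashed line is the median of all genes tested (-0.01). Falls reach from AARS1 at -0.33 to KARS1 at -0.12, no gene rose, and RARS1 has the widest bar (SE 0.50).

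Among the cytosolic enzymes, AARS1 (ENSG00000090861, chromosome 16, 70252295 to 70289543), which charges tRNA with alanine and is a class II enzyme, showed the clearest fall. It had 57.2, 56.9 and 55.7 FPKM in the 5aza libraries, against 71.0, 72.2 and 70.1 FPKM in the control libraries. The groups lay far apart beside their spread, with means of 56.6 ± 0.824 FPKM in 5aza and 71.1 ± 1.04 FPKM in control libraries (SD, n = 3 each), a log2 fold change of -0.33 (SE 0.030, adjusted p = 4.23e-04). YARS1 (ENSG00000134684, chromosome 1, 32775237 to 32818153), the tyrosyl enzyme of class I, had 82.3, 78.9 and 81.9 FPKM in the 5aza libraries, against 101, 93.1 and 97.0 FPKM in the control libraries. All its 5aza values were lower, and the log2 fold change was -0.26 (SE 0.039, adjusted p = 0.00348). YARS1 shares exonic positions with S100PBP on the opposite strand, so without strand information reads in those positions cannot be told apart. IARS1 (ENSG00000196305, chromosome 9, 92210207 to 92293756), the isoleucyl enzyme of the multisynthetase complex, had 109.7, 109.3 and 107 FPKM in the 5aza libraries, against 123, 126 and 119.6 FPKM in the control libraries. Its groups did not overlap either (log2 fold change -0.17, SE 0.030, adjusted p = 0.00658). AARS1, YARS1 and IARS1 passed the test under all 16 alternative settings.

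VARS1 and KARS1 fell by less and their calls were less stable. VARS1 (ENSG00000204394, chromosome 6, 31777518 to 31795953), the valyl enzyme, had 90.7, 91.7 and 91.2 FPKM in the 5aza libraries, against 96.3, 104.9 and 97.9 FPKM in the control libraries (log2 fold change -0.13, SE 0.037, adjusted p = 0.0442). KARS1 (ENSG00000065427, chromosome 16, 75627474 to 75648643) encodes both the cytosolic and the mitochondrial lysyl enzyme through alternative splicing. It had 104.7, 105.1 and 105.3 FPKM in the 5aza libraries, against 113, 117 and 113 FPKM in the control libraries (log2 fold change -0.12, SE 0.028, adjusted p = 0.0193). In both genes every 5aza library was below every control library. VARS1 missed the threshold when 5aza replicate 1 was left out (adjusted p = 0.107), and likewise for 5aza replicate 2 (0.0973), 5aza replicate 3 (0.107), control replicate 2 (0.104) and control replicate 3 (0.0583). KARS1 missed it when 5aza replicate 1 was left out (adjusted p = 0.0571), and likewise for 5aza replicate 2 (0.0555), 5aza replicate 3 (0.0545) and control replicate 2 (0.0643). After removal of the expression trend of the fold changes, adjusted p was 0.370 for VARS1 and 0.366 for KARS1. In GENCODE release 29, KARS1 shares exonic positions with TERF2IP, a telomere protein gene on the opposite strand, which rose (32.6 ± 1.09 FPKM in 5aza and 26.3 ± 0.621 FPKM in control, log2 fold change 0.30, adjusted p = 0.00214). The labels do not state strand marking, so reads of the 2 genes in the shared positions cannot be told apart.

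WARS1 (ENSG00000140105, chromosome 14, 100333788 to 100376805), the tryptophanyl enzyme, is known as a gene that interferon-gamma induces. It had 56.5, 52.0 and 47.4 FPKM in the 5aza libraries, against 61.9, 59.7 and 54.8 FPKM in the control libraries. The groups overlapped and the gene did not pass (log2 fold change -0.18, SE 0.070, adjusted p = 0.106). It passed without 5aza replicate 1 (adjusted p = 0.0485) and with the replicate block (0.0147), although libraries of the same number were not taken as pairs here. WARS1 shares exonic positions with WDR25 on the opposite strand (4.41 FPKM in 5aza and 4.29 FPKM in control), where reads cannot be told apart. Of 13 tested genes of the interferon-gamma response, 5 rose and 8 missed the threshold, with 0 falls, beside the 10.6% of all genes tested that rose. Between 4 and 7 rose under the alternatives. IRF1, a transcription factor of this response, had 14.2 ± 0.906 FPKM in 5aza and 11.3 ± 0.310 FPKM in control libraries (log2 fold change 0.32, adjusted p = 0.00761). The largest rises were of ICAM1, an adhesion molecule (6.17 FPKM in 5aza and 2.37 FPKM in control, log2 fold change 1.35, SE 0.105), and TAP1, a peptide transporter (27.0 FPKM in 5aza and 21.0 FPKM in control, log2 fold change 0.36, SE 0.037). These 3 genes rose in the libraries in which the WARS1 fold change was negative without passing, and their relation to WARS1 was not tested. Of the leukocyte markers, CD68, which is not particular to leukocytes, made up most of the sum, with 5.10 to 5.47 FPKM in 5aza and 2.90 to 4.10 FPKM in control libraries. The other 5 were under 1 FPKM throughout, and the part of CD68-bearing cells in these rises was not tested.

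The remaining cytosolic genes did not pass. MARS1, the methionyl enzyme, had the largest fold change among them: 74.2, 89.3 and 73.2 FPKM in the 5aza libraries, against 88.2, 92.2 and 99.6 FPKM in the control libraries. Here 5aza replicate 2 lay within the control range (log2 fold change -0.25, SE 0.080, adjusted p = 0.0628), and without it the gene passed (adjusted p = 0.0118). MARS1 shares exonic positions with DDIT3, a stress factor gene on the opposite strand, which fell (7.74 FPKM in 5aza and 9.29 FPKM in control, log2 fold change -0.26, SE 0.075, adjusted p = 0.0431). The DDIT3 call was kept in 1 of the 6 fits without a library, that without control replicate 1; in the others adjusted p was 0.0833 to 0.132. Reads in positions shared by MARS1 and DDIT3 cannot be told apart either. LARS1, TARS1 and FARSB, of the leucyl and threonyl enzymes and the beta subunit of the phenylalanyl enzyme, also had all 5aza libraries below all control libraries. Their log2 fold changes were -0.12, -0.09 and -0.10, with adjusted p of 0.0988, 0.0666 and 0.0806. FARSA, the alpha subunit of the phenylalanyl enzyme, had 101 FPKM in 5aza and 109 FPKM in control libraries, and passed without control replicate 3 (adjusted p = 0.0213). EPRS1, which joins the glutamyl and the prolyl enzyme in 1 protein, had 56.4 ± 1.42 FPKM in 5aza and 56.4 ± 0.802 FPKM in control libraries. The asparaginyl enzyme gene NARS1 had 90.8 FPKM in 5aza and 90.4 FPKM in control libraries, and the seryl SARS1 had 81.9 FPKM in 5aza and 82.6 FPKM in control libraries. The cysteinyl CARS1 had 31.5 FPKM in 5aza and 32.2 FPKM in control libraries, and the glutaminyl QARS1 had 191 FPKM in 5aza and 199.9 FPKM in control libraries. These 5 genes had the smallest fold changes of the cytosolic set, between -0.07 and 0.01 on the log2 scale.

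Of the genes that hold the ATF4 motif shown above, AARS1 and IARS1 fell, and MARS1, GARS1, TARS1, CARS1, NARS1 and YARS2 did not pass. Log2 fold changes in this subset ran from -0.33 in AARS1 to 0.01 in NARS1, that is, from the lowest value of the cytosolic set to nearly no change. Of all cytosolic synthetases 26.3% fell, and of all genes tested in their range of level 28.5% fell. YARS1, VARS1 and VARS2 fell too, but had no promoter window, so the motif could not be looked for in them.

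RARS1 and GARS1 were uneven between libraries of the same group. RARS1 (ENSG00000113643, chromosome 5, 168486445 to 168519299), the arginyl enzyme, had 93.3, 88.7 and 276 FPKM in 5aza replicates 1 to 3, and 210.2, 86.1 and 83.0 FPKM in control replicates 1 to 3. Thus 1 library of each group stood far above the other 2, and the fold change had no stable sign (log2 fold change 0.20, SE 0.50, adjusted p = 0.803). Without 5aza replicate 3 the log2 fold change was -0.33, and without control replicate 1 it was 0.64. GARS1 (ENSG00000106105, chromosome 7, 30594681 to 30634033), which encodes the glycyl enzyme of both compartments, was highest in the same 2 libraries. It had 91.6, 83.1 and 127 FPKM in 5aza replicates 1 to 3, and 120.4, 97.7 and 105 FPKM in control replicates 1 to 3. The groups overlapped (log2 fold change -0.12, SE 0.149, adjusted p = 0.605), and without 5aza replicate 3 the log2 fold change was -0.30. Among the 2670 genes tested in the cytosolic range of level, RARS1 was 1 of 3 with a spread of at least 2-fold within both groups. The pattern of 5aza replicate 3 and control replicate 1 each more than 1.1-fold above the next library of its group was found in 7 of these genes (0.262%), which include RARS1 and GARS1. The genes were singled out for this after their values were seen.

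**Figure D3:**
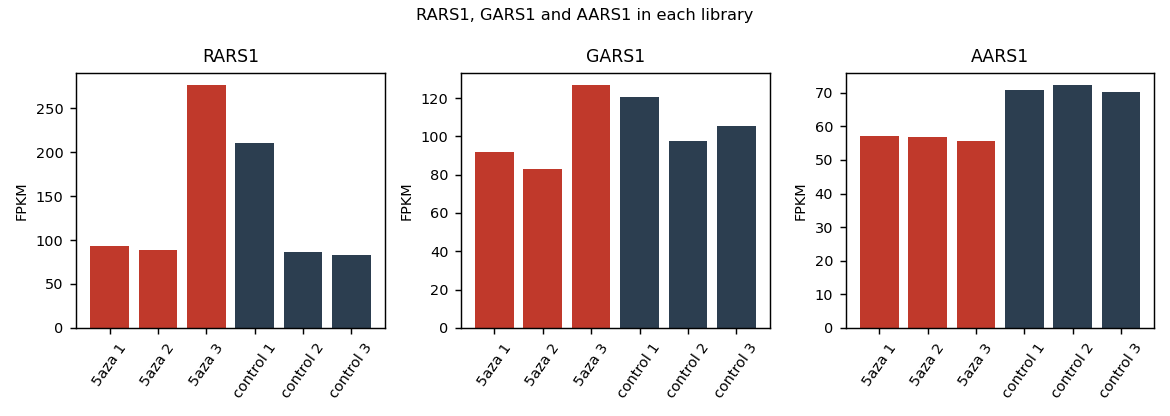
FPKM of RARS1, GARS1 and AARS1 in each library, with 5aza libraries as red bars left of control libraries as dark bars. RARS1 reaches 276 FPKM in 5aza replicate 3 and 210.2 FPKM in control replicate 1 and is at 93.3 FPKM or lower elsewhere, while AARS1 is even within each group.

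Of the mitochondrial enzymes, VARS2 (ENSG00000137411, chromosome 6, 30908242 to 30926459), which charges mitochondrial tRNA with valine, showed the largest fall. It had 39.6, 37.8 and 39.0 FPKM in the 5aza libraries, against 43.6, 48.5 and 44.9 FPKM in the control libraries. The groups did not overlap (log2 fold change -0.23, SE 0.046, adjusted p = 0.0110), and VARS2 passed under all 16 alternative settings. VARS2 shares exonic positions with GTF2H4 on the same strand in GENCODE release 29, so reads in those positions cannot be told apart. No level of GTF2H4 is given here, and the part of its reads in the VARS2 values was not tested. HARS2 (ENSG00000112855, chromosome 5, 140691426 to 140699318), the mitochondrial histidyl enzyme, had 66.3, 64.9 and 66.3 FPKM in the 5aza libraries, against 74.8, 72.6 and 74.7 FPKM in the control libraries (log2 fold change -0.17, SE 0.029, adjusted p = 0.00649). It passed in each of the 6 fits that left out a library, but not with quantile normalization (adjusted p = 0.0915), with libraries scaled to the same sum (0.0999) or with the expression trend removed (0.0733). SARS2, the mitochondrial seryl enzyme, had 26.2, 25.6 and 26.1 FPKM in the 5aza libraries, against 27.8, 31.8 and 28.5 FPKM in the control libraries. Its groups did not overlap and it did not pass (log2 fold change -0.17, SE 0.054, adjusted p = 0.0529), except without control replicate 1 (adjusted p = 0.0482). SARS2 shares exonic positions with AC011455.2 on the same strand and with MRPS12 on the opposite strand. MRPS12 was at a higher level (94.0 FPKM in 5aza and 94.4 FPKM in control), and reads in the shared positions cannot be told apart. WARS2, TARS2, AARS2 and EARS2 also had every 5aza library below every control library without passing, with log2 fold changes of -0.21, -0.15, -0.14 and -0.09. WARS2 was the gene with the lowest level, 2.18 ± 0.241 FPKM in 5aza and 2.54 ± 0.0617 FPKM in control libraries (SD, n = 3 each). The log2 fold changes of NARS2, CARS2, PARS2, LARS2, IARS2 and YARS2 lay between -0.14 and -0.01, and those of MARS2, RARS2 and FARS2 were 0.04, 0.09 and 0.09, none of them past the test.

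The cytosolic and the mitochondrial enzyme for the same amino acid can be set side by side in 17 pairs, with EPRS1 and FARS2 in 2 pairs each. The cytosolic fold change was the lower in 7 pairs and the higher in 10. The within-library ratio of the 2 genes did not overlap between groups in 10 pairs, lower after 5aza in 6 and higher in 4. The share among other pairs of genes was not computed; of single genes tested, 22.6% and 19.6% separated the groups downward and upward. An exact two-sided permutation test of 3 against 3 libraries cannot go below p = 0.1, so no pair could pass, and no p is given for pairs chosen by their difference. The largest differences were of the histidyl, methionyl and tyrosyl pairs. HARS1 over HARS2 was 1.04, 0.924 and 0.893 in the 5aza libraries, against 0.762, 0.792 and 0.754 in the control libraries. MARS1 over MARS2 was 4.79, 5.41 and 4.94 in the 5aza libraries, against 6.03, 5.77 and 6.65 in the control libraries. YARS1 over YARS2 was 3.14, 2.71 and 3.19 in the 5aza libraries, against 3.66, 3.37 and 3.73 in the control libraries. Each of these 3 ratios, chosen for their size, separated the groups, the histidyl one upward and the other two downward.

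**Figure D4:**
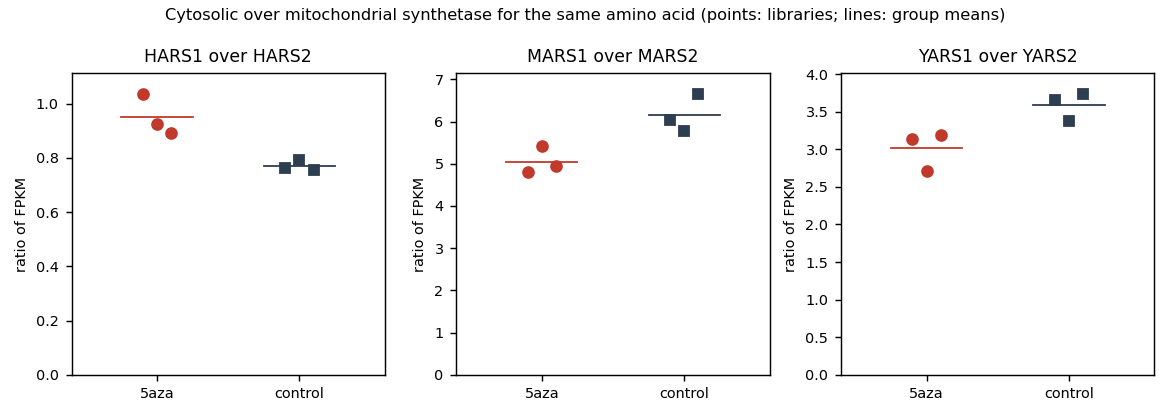
Ratio of the FPKM of the cytosolic to the mitochondrial synthetase of the histidyl, methionyl and tyrosyl pairs, with 1 point per library, 5aza left and control right, and lines at group means. The histidyl ratio is 0.893 to 1.04 after 5aza against 0.754 to 0.792 in control libraries, and the other 2 ratios are lower after 5aza.

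In the methionyl and tyrosyl pairs the mitochondrial gene was nearly level between groups. MARS2 had 15.5, 16.5 and 14.8 FPKM in the 5aza libraries, against 14.6, 16.0 and 15.0 FPKM in the control libraries. YARS2 had 26.3, 29.1 and 25.7 FPKM in the 5aza libraries, against 27.7, 27.6 and 26.0 FPKM in the control libraries. Both overlapped, with adjusted p of 0.671 and 0.956. In the histidyl pair the fold changes had opposite signs. HARS1 (ENSG00000170445, chromosome 5, 140673904 to 140691862) had 68.6, 60.0 and 59.2 FPKM in the 5aza libraries, against 57.0, 57.5 and 56.3 FPKM in the control libraries. It was the synthetase gene with every 5aza library above every control library, yet it did not pass (log2 fold change 0.13, SE 0.056, adjusted p = 0.129). It passed with quantile normalization (adjusted p = 0.0318), with libraries scaled to the same sum (0.0183) and with the expression trend removed (0.0308). HARS1 and HARS2 are neighbours transcribed away from each other: in RefSeq 84 bases lie between their starts, and their promoter windows share 184 bases (chr5:140691321-140691504, GRCh38.p14). In GENCODE release 29 their exons overlap on opposite strands, so without strand information reads in the shared positions cannot be told apart. HARS2 also shares exonic positions with ZMAT2, on the same strand. No level of ZMAT2 is given here, and the part of its reads in the HARS2 values was not tested. HARS1 also shares exonic positions with WDR55 on the opposite strand (11.6 FPKM in 5aza and 10.3 FPKM in control, adjusted p = 0.0522).

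Of the scaffolds of the multisynthetase complex, EEF1E1 fell (65.6 ± 3.90 FPKM in 5aza and 76.4 ± 5.08 FPKM in control libraries, log2 fold change -0.22, SE 0.060, adjusted p = 0.0350). AIMP1 (29.2 FPKM in 5aza and 28.6 FPKM in control) and AIMP2 (29.3 FPKM in 5aza and 27.8 FPKM in control) did not pass. EEF1E1 also missed the threshold with quantile normalization (adjusted p = 0.116), the same summed FPKM (0.112) and the expression trend removed (0.115). The EEF1E1 call needed 5aza replicate 1 (adjusted p = 0.0751 without it), 5aza replicate 2 (0.0998), control replicate 1 (0.0907) and control replicate 2 (0.0705). Beside the counts in this paragraph, 13.1% of all genes tested fell and 10.6% rose. In the cytosolic range of level, where EEF1E1 lay, 28.5% fell. Of 6 cytosolic elongation factor genes, which bring charged tRNA to the ribosome or move it along, 2 fell and 4 missed the threshold, with 0 rises. Their means over all libraries, 339 to 5676 FPKM, lay above the cytosolic range, and no share of genes of similar level was computed. The direction of this list turned with the scaling: 3, 2 and 4 rose and 0 fell with quantile normalization, the same summed FPKM and the expression trend removed. The falls were of the exchange factor subunits EEF1D (367 FPKM in 5aza and 406 FPKM in control, log2 fold change -0.14, SE 0.031, adjusted p = 0.0145) and EEF1B2 (758 FPKM in 5aza and 828 FPKM in control, log2 fold change -0.13, SE 0.037, adjusted p = 0.0430). EEF1D missed the threshold under those settings (adjusted p = 0.109, 0.0617 and 0.267). The EEF1D call needed 5aza replicate 3 (adjusted p = 0.0561 without it), control replicate 1 (0.0521) and control replicate 2 (0.0506). The EEF1B2 call was kept in 1 of the 6 fits without a library, that without control replicate 3; in the others adjusted p was 0.0935 to 0.129. Of 4 tested genes of synthetase-like and proofreading proteins, DTD2, an enzyme that removes mischarged amino acids from tRNA, rose (22.3 FPKM in 5aza and 17.5 FPKM in control, log2 fold change 0.35, SE 0.071, adjusted p = 0.0122) and 3 did not pass.

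In mitochondria, glutaminyl-tRNA is made by an amidotransferase from glutamyl-tRNA, the product of EARS2. Of 3 tested genes of this route and of formylation, 0 passed with limma. QRSL1, a subunit of the amidotransferase, was the 1 gene lower at an unadjusted p under 0.05 (8.57 FPKM in 5aza and 9.45 FPKM in control, adjusted p = 0.0772). Of 8 mitochondrial translation factors, 6 missed the threshold, 1 rose and 1 fell. GFM1, an elongation factor, rose (20.6 FPKM in 5aza and 18.5 FPKM in control, log2 fold change 0.16, SE 0.042, adjusted p = 0.0330), but in 0 of the 6 fits without a library (adjusted p 0.0523 to 0.101). TUFM, the factor that carries charged tRNA to the mitochondrial ribosome, fell (209 FPKM in 5aza and 229 FPKM in control, log2 fold change -0.14, SE 0.031, adjusted p = 0.0179). Its call needed 5aza replicate 3 (adjusted p = 0.0646 without it) and control replicate 2 (0.0562), and was lost with quantile normalization (0.283), the same summed FPKM (0.127) and the expression trend removed (0.351). Upstream of charging, 4 of 22 tRNA processing genes fell, 18 missed the threshold and 0 rose (median log2 fold change -0.07), beside 13.1% of all genes tested that fell. Of the 10 within the cytosolic range of FPKM, 2 fell, beside 28.5% of all genes tested in that range. The falls in the whole tRNA processing list numbered 2 with the same summed FPKM or with no variance trend. They also numbered 2 without 5aza replicate 1, 5aza replicate 3, control replicate 1 or control replicate 2. The falls included subunits of the tRNA splicing endonuclease, TSEN15 (19.2 FPKM in 5aza and 24.5 FPKM in control, log2 fold change -0.35, SE 0.039, adjusted p = 9.25e-04) and TSEN54 (32.0 FPKM in 5aza and 38.9 FPKM in control, log2 fold change -0.28, SE 0.035, adjusted p = 0.00167). TSEN54 was added after its values were seen. A further list held 18 genes of RNA polymerase III, which transcribes tRNA genes, of its factors and of its repressor MAF1. Here 4 fell, 14 missed the threshold and 0 rose, beside the same 13.1% of all genes tested that fell. Of the 3 within the cytosolic range of FPKM, 2 fell, beside the same 28.5% for that range. The repressor MAF1 was among the falls (log2 fold change -0.17, adjusted p = 0.0120). With the same summed FPKM, 2 genes of this list fell and 3 rose. GTF3C2 (28.1 FPKM in 5aza and 34.2 FPKM in control, log2 fold change -0.28, SE 0.056) and POLR3K (21.3 FPKM in 5aza and 25.2 FPKM in control, log2 fold change -0.24, SE 0.037) had the largest falls, of which that of GTF3C2 missed the threshold with the same summed FPKM (adjusted p = 0.0578).

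ATF4 itself fell, as did 10 further genes of its list outside the synthetases. ATF4 had 278, 268 and 269.7 FPKM in the 5aza libraries, against 335, 360.4 and 331 FPKM in the control libraries, with no overlap (log2 fold change -0.33, SE 0.039, adjusted p = 0.00134). Of 28 tested stress kinases, ATF4 and ATF4 target genes, 11 fell, 5 rose and 12 missed the threshold (median log2 fold change -0.13), beside the 13.1% and 10.6% of all genes tested that fell and rose. Of the 13 list genes within the cytosolic range of FPKM, 7 fell, beside the 28.5% given above for that range. The falls in the whole list numbered 6 without 5aza replicate 3 or with no variance trend, and 7 with the same summed FPKM. PHGDH, the first enzyme of serine synthesis, had the largest fall, with 54.1 ± 1.14 FPKM in 5aza and 76.5 ± 4.17 FPKM in control libraries (SD, n = 3 each; log2 fold change -0.50, adjusted p = 4.08e-04). ASNS, asparagine synthetase, which makes the amino acid and does not charge tRNA, fell as well (49.4 ± 2.48 FPKM in 5aza and 61.6 ± 6.15 FPKM in control, log2 fold change -0.31, SE 0.072, adjusted p = 0.0185). Its call needed 5aza replicate 1 (adjusted p = 0.0526 without it) and 5aza replicate 3 (0.0648). ATF3, a stress factor (12.8 FPKM in 5aza and 7.32 FPKM in control, log2 fold change 0.79, SE 0.059, adjusted p = 1.74e-04), and SESN2, a sensor of leucine (10.1 FPKM in 5aza and 7.53 FPKM in control, log2 fold change 0.42, SE 0.083, adjusted p = 0.0111), had the largest rises. Both are also known as p53 target genes. EIF2AK4, the kinase GCN2 that senses uncharged tRNA, rose slightly (23.0 FPKM in 5aza and 21.1 FPKM in control, log2 fold change 0.12, SE 0.038, adjusted p = 0.0485), but in 0 of the 6 fits without a library (adjusted p 0.0840 to 0.133).

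**Figure D5:**
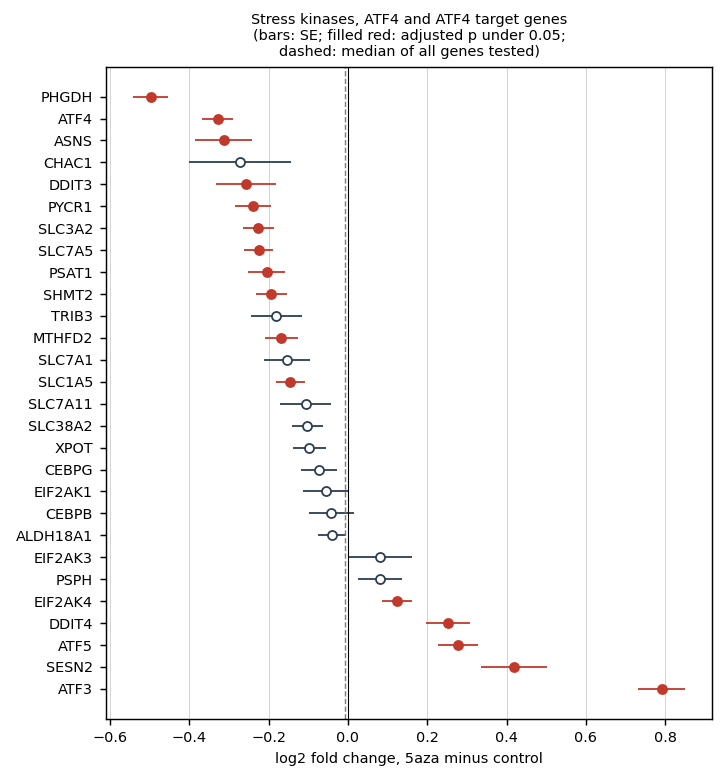
Log2 fold change, 5aza minus control, of 28 tested stress kinases, ATF4 and ATF4 target genes, with SE bars; filled red points passed the test, and the dashed line is the median of all genes tested. PHGDH (-0.50) and ATF4 (-0.33) lie at the low end and ATF3 (0.79) at the high end.

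MYC, whose product is known to act on genes of translation, had 148, 150.5 and 149 FPKM in the 5aza libraries, against 152, 155 and 142 FPKM in the control libraries. The groups overlapped (log2 fold change -0.00, SE 0.037, adjusted p = 0.963). Of 14 tested genes of MYC, its partners and translation-linked targets, 4 fell, 2 rose and 8 missed the threshold. Beside these stand the 13.1% and 10.6% of all genes tested that fell and rose. Of the 2 list genes within the cytosolic range of FPKM, 0 fell, beside 28.5% of all genes tested in that range. MXD4, whose product opposes MYC, rose (16.5 FPKM in 5aza and 11.1 FPKM in control, log2 fold change 0.57, SE 0.042), as did MXI1, of the same kind (22.8 FPKM in 5aza and 19.5 FPKM in control, log2 fold change 0.22, SE 0.048). MXD3, a further member of that family, fell (17.3 FPKM in 5aza and 23.9 FPKM in control, log2 fold change -0.46, SE 0.109), as did FBL, a nucleolar methyltransferase (374 FPKM in 5aza and 469.6 FPKM in control, log2 fold change -0.33, SE 0.044). The MXI1 call needed 5aza replicate 3 (adjusted p = 0.0544 without it) and control replicate 1 (0.0531). The MXD3 call needed these as well (0.0505 and 0.0550), and control replicate 2 (0.0531). The falls also included NCL and NPM1. Their calls were lost with quantile normalization (adjusted p = 0.189 and 0.577) and with the same summed FPKM (0.143 and 0.218). With the expression trend removed, adjusted p was 0.599 for NCL and 0.997 for NPM1.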

How the data were processed

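RNA-seq of 3 5aza and 3 control libraries was used. The authors deposited FPKM per gene in 1 table for all 6 libraries; the unit is per the name of the deposited table. Rnor_6.0 and GRCh38 are the builds named in the submitters' processing notes, which also name DESeq2 1.10.1, HTSeq 0.6.0 and STAR 2.5.1b without saying what each did; the program behind the FPKM values was not given in the sources used here. No counts were given, so depth per library is unknown and no interval or floor from depth is printed.

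The table has 16726 rows and 16715 identifiers; for 11 repeated identifiers the row of higher mean was used. Columns were matched to samples by the sample descriptions. Positions are from GENCODE release 29 (GRCh38) and promoters from RefSeq (GRCh38.p14); genes of the X, Y and mitochondrial chromosomes were not analysed here.

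Values were used as log2(FPKM + 0.1), which understates changes of low genes. Genes at 0.5 FPKM or more in 3 or more libraries (12360) were fitted with limma 3.58.1 in R 4.3.3. Two-sided p-values from eBayes, with a variance trend, were adjusted by Benjamini-Hochberg over these genes. The fit was tested on simulated data. Libraries of the 2 groups with the same number were not taken as pairs. Alternatives changed the pseudocount, filter, scaling, variance model, expression trend, replicate block and libraries.

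The members and the gene lists were chosen with earlier results of these data known. Members named in full were those past the threshold, WARS1, GARS1, KARS1 and both genes of the 3 amino acid pairs with the largest difference; from each list, up to 2 rising and 2 falling genes with the largest changes, and ATF4, ASNS, MYC, EIF2AK4 and IRF1. Some results that this rule covers are not reported here. Values of other synthetases, and of TERF2IP, DDIT3, WDR55, MRPS12 and WDR25, which overlap synthetases, were added after they were seen. The same holds for the list genes NCL, NPM1 and MAF1.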

Additional observations from a re-analysis of the deposited data

How the results depend on the processing

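Over 16 alternatives, AARS1, YARS1, IARS1 and VARS2 passed in all, and none of the 7 called synthetase genes changed sign. Under quantile normalization, the same summed FPKM, the expression trend removed, and the replicate block with that trend removed, 3 cytosolic genes fell and 1 rose (HARS1), and 1 mitochondrial gene fell; with no variance trend, 3 cytosolic genes fell. Without 1 library, 3 to 5 cytosolic and 2 to 3 mitochondrial genes fell, with 0 rising. The median log2 fold change of cytosolic synthetases was -0.039, -0.022, -0.036 and -0.036 under those 4 settings, and -0.13 to -0.087 without 1 library. The median log2 fold change of mitochondrial synthetases was -0.025 with the same summed FPKM and -0.12 to -0.076 without 1 library. That scaling moved the median of all genes tested to 0.07. Of the 118 tested genes of all 10 lists, interferon and MYC genes included, 14 rose and 27 fell; 24 rose and 13 fell with the same summed FPKM, 14 fell with no variance trend, 16 with the expression trend removed and 17 with the replicate block as well, and 9 to 12 rose and 14 to 29 fell without 1 library. The cause was not tested.

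Signs turned in synthetase genes that did not pass. Under the same 4 settings, in that order, log2 fold changes were 0.0091, 0.050, 0.012 and 0.012 for CARS1, 0.065, 0.079, 0.064 and 0.064 for EPRS1, 0.027, 0.014, 0.033 and 0.033 for QARS1, 0.060, 0.070, 0.066 and 0.066 for SARS1, 0.050, 0.068, 0.061 and 0.061 for IARS2, and 0.014, 0.074, 0.029 and 0.029 for YARS2. With the same summed FPKM, LARS2 had 0.048 and PARS2 0.021. EEF1B2, which fell, had 0.022 under quantile normalization. Without 1 library, values ranged from -0.066 to 0.017 (CARS1), -0.020 to 0.016 (EPRS1), -0.30 to 0.0052 (GARS1), -0.030 to 0.027 (NARS1), -0.33 to 0.64 (RARS1), -0.054 to 0.048 (SARS1), -0.0024 to 0.075 (MARS2) and -0.061 to 0.031 (YARS2).

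Libraries of the 2 groups with the same number had correlated deviations of r = 0.0482, 0.0772 and 0.0677, under the 0.1 set for pairing, although every library correlated best with its own number. With the replicate block, 6 cytosolic and 2 mitochondrial genes fell, WARS1 being the addition (adjusted p = 0.0147). Depth is unknown, so what it limits could not be given.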
